A study of Mus musculus with 12 samples.

Results

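*A730046J19Rik*, *A830018L16Rik*, *Anxa2*, *Kcnab1*, *C1ql3*, *Chodl*, *Lix1* and *Megf11* are 8 of the 45777 genes in the tables. The study singled them out as candidate targets of the LIM-homeodomain factor Isl2 in proximal hindlimb motor pools. Each had a lower lumbar value in *Isl2* KO than in heterozygote embryos, past a log2 fold change of −0.5 and an unadjusted p of 0.05, and each also appeared in single-cell lists for the *Lhx1*+ *Etv4*+ pools. *A830018L16Rik* came from the single-cell subcluster holding the rectus femoris, tensor fasciae latae and gluteus pools, and the others from a published lateral motor column subcluster named c/rl4 (*C1ql3* and *Kcnab1* were in both). The genes were therefore selected on the lumbar genotype contrast of the same libraries. Their lumbar values below are a description. Their brachial values did not enter that threshold, although the study also set the lists of both levels against each other. The difference between levels is a separate contrast but draws on the same lumbar libraries. A mean over both genotypes therefore holds part of the lumbar KO drop, and heterozygote values are given beside it. Those are not free of the choice either, since the lumbar heterozygotes were its reference group. All 8 genes had a mean of at least 0.5 TPM, a transcript abundance normalised for gene length and library total, as did 16736 genes in all over the 12 libraries.

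A motor pool is the group of motor neurons (MNs) that innervates one muscle. Limb pools lie in the lateral motor column and are assigned by LIM-homeodomain, Hox and ETS factors, with *Etv4* induced in some of them by signals from the limb. The 8 genes encode products of several kinds. Kcnab1 is a channel subunit, C1ql3 a secreted synaptic ligand, and Chodl and Megf11 are membrane proteins with extracellular domains. Anxa2 binds calcium and phospholipid, and Lix1 was named for its expression in the developing limb. *A730046J19Rik* and *A830018L16Rik* are known by RIKEN cDNA names.

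Total RNA came from E12.5 mouse ventral spinal cord, which was dissected with the *Hb9::GFP* transgene as a guide to the MNs. Each level, brachial or lumbar, was represented by 3 *Isl2* +/- and 3 *Isl2* KO (-/-) libraries. The null allele carries a neomycin cassette in place of several exons. Heterozygotes served as controls, with 1 intact *Isl2* allele, and no wild-type library was analysed here. The p-values measure the spread between the 3 libraries of a group. Aligned depth ranged from 4.48 to 6.64 Gb, and the shallowest library, brachial *Isl2* KO replicate 3, stood apart for several of the genes, so results that rest on it are also given without it. *Xist* and the Y-linked genes showed 1 female and 2 male libraries in each brachial group, 2 females and 1 male among lumbar heterozygotes, and 1 female and 2 males among lumbar KO libraries. The methods name 3 animals per genotype, but with these sexes the 6 heterozygote libraries cannot all come from the same 3 animals. The supplement of the study gives 3 animals per group, which can also be read as separate animals for each level. All 8 MN markers were present in every group, with summed levels between 220 and 361 TPM, while 6 skeletal muscle markers summed to at most 1.82 TPM. Pools cannot be resolved in bulk tissue, so the assignment of the genes to a pool could not be checked in these libraries. By in situ hybridization the study placed *A730046J19Rik* in rectus femoris pools and *Anxa2*, *Kcnab1* and *C1ql3* in gluteus pools. It reported these genes as reduced there in *Isl2* KO embryos.

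*Isl2* itself (chr9:55538677-55547667, GRCm38, plus strand) was not absent at the gene level in KO libraries. At the brachial level it was 8.71, 8.36 and 9.67 TPM in heterozygotes and 6.03, 7.34 and 4.52 TPM in KO libraries. At the lumbar level the values were 10.3, 8.42 and 9.36 TPM against 7.33, 6.48 and 8.27 TPM. The KO libraries lay below the heterozygotes at both levels without overlap, with log2 differences of −0.60 (SE 0.18, adjusted p = 0.359, limma) and −0.34 (SE 0.13, adjusted p = 0.998). These gene-level values pool all exons, so they do not show how much intact transcript was left.

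Promoter sequences of 6 of the genes were found in RefSeq (GRCm38.p6), in 8 windows that run from 250 bases before to 50 bases after an annotated start. *A830018L16Rik* and *Megf11* were not matched. Isl2 has a homeodomain and Etv4 an ETS domain, so the windows were searched on both strands for the homeodomain core TAAT, which reads ATTA on the other strand, for the longer form CTAATG, which reads CATTAG there, and for the ETS motif CCGGAAG, which reads CTTCCGG there. TAAT was found in 7 of the 8 windows, against 58.0% of all 32851 promoter windows of this length. CTAATG, which contains TAAT, was found in 1 window, window 3 of *Kcnab1*, against 7.36% of all windows. CCGGAAG was found in none of the 8 (8.86% of all). A match is a description of the letters only. The windows below are shown because *Anxa2* and *Chodl* had the most similar profiles of the 8 genes, *C1ql3* held no TAAT, and *Kcnab1* held the CTAATG match and the most TAAT matches. Capitals mark the TAAT core and its longer form on either strand, and every sequence is written 5′ to 3′ along the strand of the gene.
The *Anxa2* window (chr9:69453433-69453732, plus strand) held 1 TAAT.
Anxa2: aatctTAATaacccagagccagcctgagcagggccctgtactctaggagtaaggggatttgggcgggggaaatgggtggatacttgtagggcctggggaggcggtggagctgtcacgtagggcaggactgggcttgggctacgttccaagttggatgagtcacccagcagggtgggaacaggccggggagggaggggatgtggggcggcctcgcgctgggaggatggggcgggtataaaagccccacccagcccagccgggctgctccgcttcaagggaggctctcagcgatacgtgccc
The *Chodl* window (chr16:78930698-78930997, plus strand) held 2.
Chodl: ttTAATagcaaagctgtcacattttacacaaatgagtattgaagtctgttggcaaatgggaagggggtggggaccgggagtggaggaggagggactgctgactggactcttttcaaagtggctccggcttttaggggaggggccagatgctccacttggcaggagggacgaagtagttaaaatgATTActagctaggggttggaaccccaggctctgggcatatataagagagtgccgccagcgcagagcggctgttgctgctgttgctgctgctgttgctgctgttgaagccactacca
Window 1 of *Kcnab1* (chr3:64948962-64949261, plus strand) held 4.
Kcnab1 window 1: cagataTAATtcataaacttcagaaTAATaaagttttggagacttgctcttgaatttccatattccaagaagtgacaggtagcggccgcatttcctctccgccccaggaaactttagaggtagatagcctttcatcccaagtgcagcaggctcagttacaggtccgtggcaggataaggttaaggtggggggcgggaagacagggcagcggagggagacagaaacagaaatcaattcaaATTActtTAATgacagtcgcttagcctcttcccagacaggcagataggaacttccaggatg
Window 3 of *Kcnab1* (chr3:65187853-65188152, plus strand) held 3, of which 1 lies inside the CTAATG match.
Kcnab1 window 3: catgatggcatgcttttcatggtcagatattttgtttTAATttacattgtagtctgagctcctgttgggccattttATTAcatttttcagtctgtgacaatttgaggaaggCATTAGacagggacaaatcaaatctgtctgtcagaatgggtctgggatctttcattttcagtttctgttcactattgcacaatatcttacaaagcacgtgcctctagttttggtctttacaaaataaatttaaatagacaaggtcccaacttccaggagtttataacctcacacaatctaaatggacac
The *C1ql3* window (chr2:13010815-13011114, minus strand) held none.
C1ql3: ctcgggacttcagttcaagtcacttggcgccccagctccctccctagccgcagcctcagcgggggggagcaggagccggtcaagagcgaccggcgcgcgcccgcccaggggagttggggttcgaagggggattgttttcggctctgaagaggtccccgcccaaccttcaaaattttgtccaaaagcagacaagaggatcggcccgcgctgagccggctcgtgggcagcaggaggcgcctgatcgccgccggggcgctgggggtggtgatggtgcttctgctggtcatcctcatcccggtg

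In the lumbar contrast that chose them, the KO levels of the 8 genes were between 58.6% and 69.8% of the heterozygote levels, and in each of the 8 genes every KO library lay below every heterozygote library. Lower values past the threshold were found for 0.775% of the 16511 genes tested at this level, and KO libraries lay below heterozygotes without overlap for 5.35%. Nothing is read from the 8 of 8, since these values chose the genes. The log2 differences ran from −0.77 for *Kcnab1* to −0.52 for *Anxa2*, with a median of −0.65 against −0.0042 over all genes tested. On the limma fit used here, *Anxa2* (−0.52) and *C1ql3* (−0.53) lay just inside the threshold. Just outside it by size was *2310034G01Rik* (−0.49, from 3.02 to 2.09 TPM), and by p *Gm34432* (−0.67, from 1.44 to 0.855 TPM). The study chose the genes with DESeq2, so these are not the margins of its own selection. In bulk tissue fewer cells of a type and less RNA per cell cannot be told apart. The 8 MN markers were all below 0 in the same contrast, with log2 differences between −0.40 and −0.012 and a median of −0.28, and none passed the threshold. Their summed level was 268 to 361 TPM in lumbar heterozygotes and 220 to 330 TPM in lumbar KO libraries. The 9 blood markers were above 0 at both levels, with medians of 0.42 at the lumbar and 0.49 at the brachial level. At the lumbar level 1 of them, *Hba-x*, passed the threshold (0.69), and the 9 summed to 2457 to 3931 TPM in lumbar heterozygotes and 3208 to 5145 TPM in lumbar KO libraries. The part of MN number or blood content in the lumbar values was not tested.

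**Figure D1:**
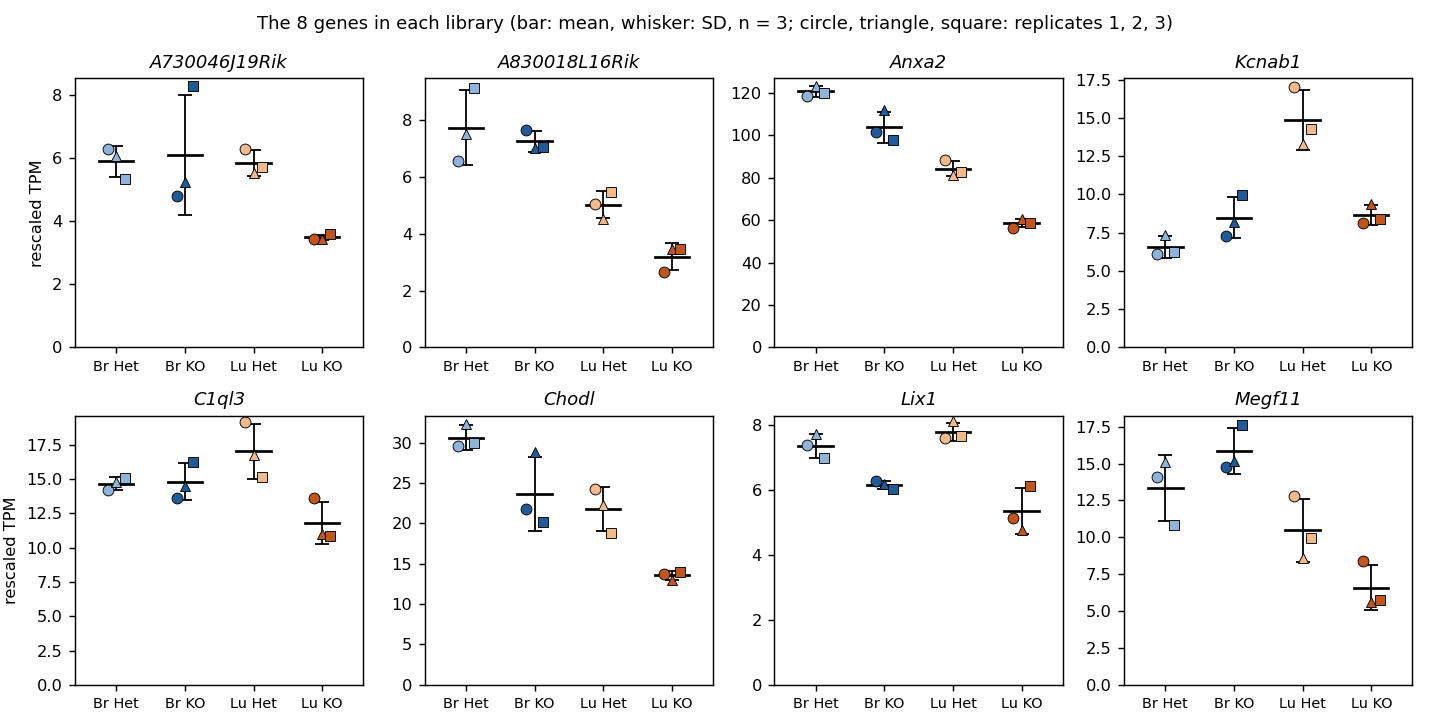
Rescaled TPM (vertical axes, from 0) of the 8 genes in the 12 libraries, by group (Br, brachial; Lu, lumbar; Het, heterozygote). Bars are means and whiskers SDs (n = 3), and circles, triangles and squares are replicates 1, 2 and 3. In all 8 panels the 3 lumbar KO points lie below the 3 lumbar heterozygote points, in the contrast whose fold change and p chose the genes.

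*Kcnab1* (chr3:64949212-65378225, plus strand) encodes a beta subunit that associates with Kv1 potassium channels and can speed their inactivation. In heterozygotes it was 6.14, 7.38 and 6.21 TPM at the brachial level and 17.0, 13.3 and 14.3 TPM at the lumbar level. In KO libraries it was 7.31, 8.21 and 9.94 TPM at the brachial level and 8.12, 9.37 and 8.40 TPM at the lumbar level. Lumbar heterozygotes thus stood above the other 9 libraries, whose groups overlapped with their neighbours in order. The brachial KO mean of 8.49 ± 1.34 TPM (SD, n = 3) was above the heterozygote mean of 6.58 ± 0.699 TPM. That brachial log2 difference was 0.36 (95% interval 0.015 to 0.70, adjusted p = 0.359 by limma, exact permutation p = 0.2), which did not pass the threshold, and the lowest KO library lay below the highest heterozygote library. It passed as higher on the values as deposited (0.52) and was 0.24 without brachial KO replicate 3. The lumbar difference was −0.77 and the lumbar minus brachial difference of the genotype effect was −1.13, the furthest from 0 of the 8 genes (both a description).

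*Kcnab1* was also the only one of the 8 that was higher at the lumbar level over both genotypes, with a log2 difference of 0.60 (SE 0.18, adjusted p = 0.0397, limma). The exact permutation test within genotypes gave p = 0.045, two-sided. This call was lost under 14 of the 24 alternative fits over both genotypes, with adjusted p up to 0.149 among the fits that kept all libraries. Split by genotype, the log2 difference between levels was 1.16 in heterozygotes, whose levels did not overlap, and 0.03 in KO libraries, whose levels did. In heterozygotes alone, a fit added after the data were seen, the adjusted p was 0.00559 (limma). The lumbar heterozygotes were the reference group of the contrast that chose the gene, so this p is not independent of that choice. Of the Kv1 alpha subunits and other beta subunits tested with it, none of 8 passed the threshold at the brachial level and none of 7 at the lumbar level. Between levels, *Kcna4* (−1.36), *Kcna5* (−1.42) and *Kcna6* (−0.56) were lower at the lumbar level, with adjusted p of at most 0.00267, and none of the 8 was higher.

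*C1ql3* (chr2:13001887-13010864, minus strand) encodes a secreted C1q-like protein that binds the adhesion receptor Adgrb3 at synapses. Its brachial values were 14.2, 14.8 and 15.1 TPM in heterozygotes and 13.6, 14.5 and 16.3 TPM in KO libraries. These overlapped fully, with a log2 difference of 0.0091 (95% interval −0.21 to 0.23, adjusted p = 0.971, limma). The sign of so small a value changed with quantile normalization (−0.037), without a filter (−0.0011) and without brachial KO replicate 3 (−0.062). Lumbar values were 19.2, 16.8 and 15.2 TPM in heterozygotes and 13.6, 10.99 and 10.8 TPM in KO libraries, a difference of −0.53. The mean over genotypes differed little between levels (−0.060, 95% interval −0.29 to 0.17, adjusted p = 0.749), since the lumbar level was the higher one in heterozygotes (0.21) and the lower one in KO libraries (−0.33), in both without overlap. *Adgrb3* and *C1ql1* did not pass a test in any comparison. *C1ql4*, a relative of *C1ql3*, was higher at the lumbar level (log2 difference 0.54, adjusted p = 0.0439), and *C1ql2* was too low to test.

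*Chodl* (chr16:78930841-78951736, plus strand) encodes chondrolectin, a membrane C-type lectin that marks a class of fast MNs and takes part in motor axon growth. In brachial heterozygotes it was 29.6, 32.4 and 30.0 TPM, and in brachial KO libraries 21.8, 28.9 and 20.2 TPM. The KO libraries lay below the heterozygotes without overlap, and the log2 difference was −0.39 (95% interval −0.70 to −0.080, adjusted p = 0.359 by limma). It passed the threshold when brachial KO replicate 2 was left out (−0.54), and was −0.29 without replicate 3 and −0.22 on the values as deposited. Lumbar values were 24.3, 22.2 and 18.8 TPM in heterozygotes and 13.8, 12.9 and 14.0 TPM in KO libraries, a difference of −0.67. *Chodl* was lower at the lumbar than at the brachial level by −0.64 on the log2 scale (SE 0.095, adjusted p = 0.00112), although brachial KO and lumbar heterozygote libraries overlapped. *Layn*, which encodes the related lectin layilin, fell in the brachial KO libraries (log2 difference −1.20, past the threshold, with an adjusted p of 0.359) and was lower at the lumbar level (−1.36, adjusted p = 0.000529). Its level was at most 1.72 TPM in any library, and it was below the filter in the lumbar libraries.

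*Megf11* (chr9:64385617-64714179, plus strand) encodes a transmembrane protein with EGF-like repeats that acts in spacing between neurons of one type in the retina. Its brachial values were 14.1, 15.1 and 10.8 TPM in heterozygotes and 14.8, 15.2 and 17.6 TPM in KO libraries. These overlapped, with a log2 difference of 0.26 (95% interval −0.072 to 0.59, adjusted p = 0.402, limma). It was 0.11 without heterozygote replicate 3, 0.15 with coverage and 0.42 on the values as deposited. Lumbar heterozygotes had 12.8, 8.62 and 9.97 TPM, and lumbar KO libraries 8.36, 5.63 and 5.76 TPM. The lumbar difference was −0.66 with the widest interval of the 8 genes, −1.12 to −0.21, and 1 KO library, at 8.36 TPM, came close to the lowest heterozygote. *Megf11* was lower at the lumbar level (−0.81, SE 0.18, adjusted p = 0.00879), by −0.35 in heterozygotes with overlap and by −1.27 in KO libraries without overlap. In heterozygotes alone it did not pass (adjusted p = 0.313, limma), and the call over both genotypes includes the KO libraries that chose the gene. Its relative *Megf10* did not pass in any comparison, nor did *Pear1*. *Gulp1*, which encodes an engulfment adaptor of this receptor family, was higher at the lumbar level (0.50, adjusted p = 0.00775).

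*Anxa2* (chr9:69453683-69491792, plus strand) encodes annexin A2, a calcium-dependent phospholipid-binding protein that forms a complex with S100a10. It had the highest level of the 8 genes in TPM and the smallest standard error of the 8 in each fit. Brachial values were 118, 123 and 120 TPM in heterozygotes and 102, 112 and 97.9 TPM in KO libraries. The KO libraries lay below without overlap, with a log2 difference of −0.22 (95% interval −0.38 to −0.053, adjusted p = 0.359 by limma) that was short of the fold threshold. On the values as deposited, in which the median over all genes moved to 0.16 in this comparison, the difference was −0.052. Lumbar values were 88.2, 81.5 and 82.8 TPM in heterozygotes and 56.5, 60.5 and 58.9 TPM in KO libraries, a difference of −0.52. The 4 groups ran from brachial heterozygote through brachial KO and lumbar heterozygote to lumbar KO, and no neighbours in that order overlapped. Between levels *Anxa2* had the smallest adjusted p of the 8 genes (log2 difference −0.67, SE 0.061, adjusted p = 2.8e-05). Its partner *S100a10* was −0.39 at the brachial level (adjusted p = 0.359) and 0.050 between levels. None of the 7 tested genes of the S100a10, annexin and *Ahnak* list passed the threshold of either genotype comparison, while *Anxa5* (−0.40), *Anxa6* (−0.67) and *Ahnak* (−0.60) were lower at the lumbar level, with adjusted p of at most 0.0243.

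*Lix1* (chr17:17402686-17459387, plus strand), limb expression 1, was 7.38, 7.72 and 6.98 TPM in brachial heterozygotes and 6.27, 6.17 and 6.04 TPM in brachial KO libraries. The KO libraries lay below without overlap, with a log2 difference of −0.25 (95% interval −0.49 to −0.0096, adjusted p = 0.359 by limma). On the values as deposited it was −0.087. Lumbar values were 7.62, 8.12 and 7.67 TPM in heterozygotes and 5.14, 4.76 and 6.13 TPM in KO libraries, a difference of −0.54. Heterozygotes of both levels overlapped, as did the KO libraries of both levels, and the mean difference between levels was −0.063 (95% interval −0.24 to 0.12, adjusted p = 0.653). *Lix1l*, its paralog, did not pass a test in any comparison and lay between −0.060 and 0.032 in all of them.

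*A730046J19Rik* (chrX:144153695-144166274, plus strand) was 6.29, 6.07 and 5.35 TPM in brachial heterozygotes and 4.79, 5.25 and 8.29 TPM in brachial KO libraries. The brachial difference of 0.011 (95% interval −0.48 to 0.50, adjusted p = 0.985, limma) thus averaged 2 KO libraries below and 1 above all heterozygotes, and became −0.23 (adjusted p = 0.67) without KO replicate 3. Lumbar heterozygotes had 6.30, 5.52 and 5.73 TPM and lumbar KO libraries 3.45, 3.44 and 3.59 TPM, with a smaller SD relative to the mean than the other 7 genes had in that group. The gene is X-linked, and the outlying brachial KO library was female. The female brachial heterozygote was the lowest of its 3 libraries, the female lumbar KO library lay close to both males, and both female lumbar heterozygotes lay above the male. Between levels the difference was −0.38 (SE 0.16, adjusted p = 0.115), or −0.23 without brachial KO replicate 3, close to 0 in heterozygotes (−0.012) and −0.75 in KO libraries.

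*A830018L16Rik* (chr1:11413615-11975902, plus strand) was 6.56, 7.52 and 9.15 TPM in brachial heterozygotes and 7.68, 7.04 and 7.07 TPM in brachial KO libraries. The KO values fell within the heterozygote range, with a log2 difference of −0.079 (95% interval −0.41 to 0.25, adjusted p = 0.797, limma). It turned to 0.085 on the values as deposited and to 0.046 without brachial heterozygote replicate 3. Lumbar values were 5.05, 4.54 and 5.49 TPM in heterozygotes and 2.64, 3.48 and 3.47 TPM in KO libraries, a difference of −0.64. All 6 lumbar libraries lay below all 6 brachial libraries, with a log2 difference of −0.89 between levels (SE 0.13, adjusted p = 0.000961), the furthest from 0 of the 8. In heterozygotes alone it was −0.61 (adjusted p = 0.0708, limma).

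Set side by side, the brachial values of the 8 genes were spread around 0. None of the 8 passed the threshold in the lower direction, as 0.827% of 16935 genes did, and none passed in the higher direction, as 2.3% did (limma). At an unadjusted p under 0.05, *Anxa2*, *Chodl* and *Lix1* were lower, as 6.89% of all genes were, and *Kcnab1* was higher, as 7.05% were. The KO libraries lay below the heterozygotes without overlap for those same 3 genes (10.2% of all genes) and above them for none (9.93% of all genes). The median of the 8 log2 differences was −0.035, against −0.0013 over all genes. With 3 libraries against 3, the exact permutation test cannot go below p = 0.1, two-sided, which it reached for *Anxa2*, *Chodl* and *Lix1*. The 95% intervals of 7 of the genes excluded a brachial log2 difference of −0.5, and that of *Chodl* included it. Without KO replicate 3 the brachial differences lay between −0.29 (*Chodl*) and 0.24 (*Kcnab1*), and again none passed. On the values as deposited *Kcnab1* passed as higher.

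**Figure D2:**
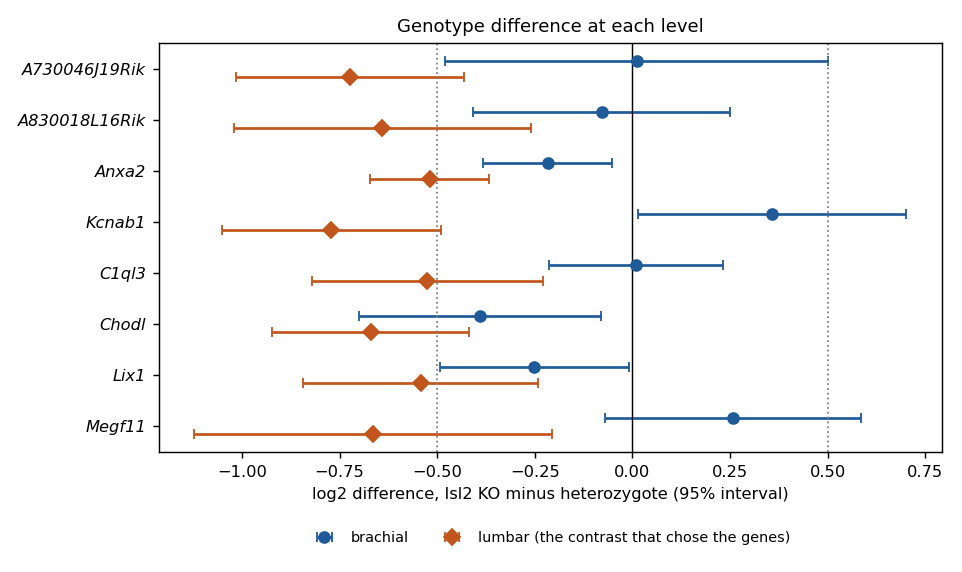
Log2 difference of *Isl2* KO minus heterozygote (horizontal axis) for each gene at the brachial (circles) and lumbar (diamonds) levels, with 95% intervals from limma (3 against 3 libraries). Dotted lines mark the fold threshold of 0.5 in either direction. Lumbar values, which chose the genes, run from −0.77 to −0.52, and brachial values from −0.39 to 0.36.

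The lumbar difference was further below 0 than the brachial one in all 8 genes, by −0.28 (*Chodl*) to −1.13 (*Kcnab1*) with a median of −0.55. This difference contains the contrast that chose the genes and is given as a description. The lumbar and brachial values came closest to each other in *Chodl*, *Lix1* (−0.29) and *Anxa2* (−0.30), the genes whose brachial KO libraries also lay below their controls. On the values as deposited these 3 were −0.44, −0.45 and −0.46, and *Chodl* was −0.13 without brachial KO replicate 2.

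Between levels, over both genotypes, 4 of the 8 genes were lower at the lumbar level at an adjusted p of 0.05 (*A830018L16Rik*, *Anxa2*, *Chodl* and *Megf11*), against 10.1% of 16736 genes, and *Kcnab1* alone was higher, against 8.77%. For *Anxa2* and *A830018L16Rik* the 6 lumbar libraries lay below the 6 brachial libraries without overlap, as 4.85% of all genes did. The exact permutation test within genotypes gave p = 0.005 for *Anxa2*, *A830018L16Rik* and *Chodl*, the smallest its 400 arrangements can give. These 4 lower calls held in all 24 alternative fits over both genotypes, the fit with embryo sex as a term among them. The counts cannot be read as independent of the choice of the genes, since the lumbar KO libraries that set them past the threshold enter these means. In the 6 heterozygote libraries alone, *Anxa2* (−0.52) and *Chodl* (−0.50) were lower, against 2.09% of 16551 genes, and *Kcnab1* (1.16) was higher, against 0.979%. *A830018L16Rik* and *Megf11* did not pass there, and the median over the 8 genes was −0.18. The lumbar heterozygotes also entered the choice, as its reference group. The markers of other cell types also differed between levels. The 6 endothelial markers were all below 0, and *Kdr*, *Tek*, *Cldn5* and *Esam* were lower at the lumbar level. Their sums were 85.1 to 89.3 TPM in brachial and 55.5 to 61.6 TPM in lumbar heterozygotes, and 66.0 to 86.8 TPM in brachial and 54.1 to 67.5 TPM in lumbar KO libraries. Of 4 microglial markers *Csf1r*, *Cx3cr1* and *Fcrls* were lower at the lumbar level, with sums of 8.88 to 14.4 TPM in brachial and 3.94 to 8.23 TPM in lumbar libraries. Of the 8 MN markers *Slc5a7* (−1.10) and *Aldh1a2* (−0.50) were lower at the lumbar level and none was higher, with a median of −0.0064. No marker of these 3 lists was at 0 in all libraries. The part of these cell types in the differences between levels was not tested.

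**Figure D3:**
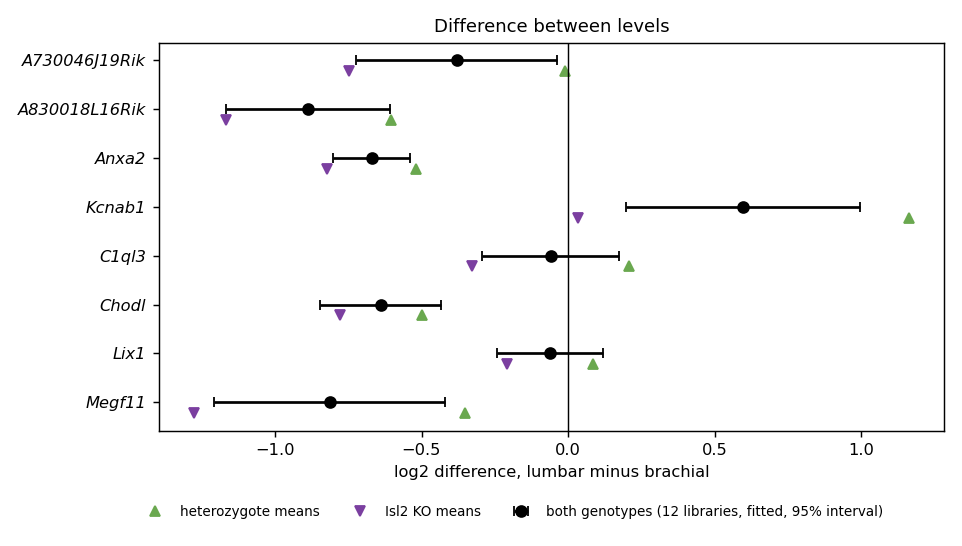
Log2 difference of lumbar minus brachial (horizontal axis) for the 8 genes. Black circles are the limma estimates over both genotypes with 95% intervals (12 libraries), and triangles the differences of group means within heterozygotes (pointing up) and KO libraries (pointing down). Among the circles, *A830018L16Rik* (−0.89) lies furthest below 0, and *Kcnab1* (0.60) is the only gene above it.

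Of 11 other genes that the study named for limb pools, *Etv4*, *Prph*, *Uts2b*, *Barx2* and *Hrk* were in its lumbar list from these libraries. The others were named from single-cell data. The study also reported lower lumbar *Etv4* in *Isl2* KO embryos by immunostaining and by RT-PCR. In the lumbar contrast *Etv4* (−0.999), *Prph* (−0.77), *Uts2b* (−1.16), *Barx2* (−0.98) and *Hrk* (−0.77) were past the threshold, and none of the other 6 was. Apart from *Etv4*, this is no independent evidence of a direction, since the contrast chose these genes. By in situ hybridization the study reported *Epha3*, *Fgf10* and *Sema5a* as reduced in *Isl2* KO. Their lumbar differences in these bulk libraries were 0.19, −0.27 and 0.013. At the brachial level *Uts2b*, which encodes a urotensin-like peptide, fell by 1.08 on the log2 scale (adjusted p = 0.016), and *Sema5a*, which encodes a guidance protein, was higher (0.57, adjusted p = 0.359). Between levels *Etv4* (−1.60), *Prph* (−2.62), *Uts2b* (−0.26) and *Sema5a* (−0.81) were lower at the lumbar level and the ephrin receptor gene *Epha3* (0.97) was higher. *Lhx1*, *Nkx6-2* and *Ret* passed no test, and *Fgf10* was tested only in the lumbar libraries, where it was −0.27.

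Coverage, the mean number of reads per base, gave the same directions as TPM for all 8 genes in all comparisons, with lumbar log2 differences between −0.74 and −0.52. Its scale could not be compared between genes. In *A730046J19Rik* and *C1ql3*, which have 1 RefSeq transcript each, coverage stood at the ratio to FPKM that holds for each library, with 9.10 to 20.9 and 33.5 to 63.7 reads per base. In the genes with several transcripts it was lower, from 64.0% to 66.2% of that ratio in *Chodl* to 1.18% to 1.24% in *Kcnab1*, where it read 0.218 to 0.693 reads per base, and 4.34% to 5.77% in *Megf11* (17 transcripts). The percentage stayed nearly constant between libraries for *Anxa2* (11.4% to 11.5%) and *Lix1* (34.8% to 35.1%), so their changes in coverage followed those in TPM.

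*Megf11* and *Anxa2* lie on the chromosome of *Isl2*, 8.84 and 13.9 Mb from it. The other 134 genes tested in the lumbar libraries up to *Anxa2* had a median log2 difference of 0.0021, with 66 below 0. *Calml4* alone among them passed the threshold in the lower direction, 3 passed in the higher direction, and 2 lay further below 0 than *Megf11*. In the brachial libraries the median over the other 137 genes was 0.024, and 106 of them lay below *Megf11* and 21 below *Anxa2*. Of these 137 genes 0 passed as lower and 3 as higher. Over the same distance on the other side of *Isl2*, the medians were −0.027 over 117 genes in the lumbar and −0.018 over 122 genes in the brachial libraries. There *Slc35f2*, at −1.72 Mb, and *2310030G06Rik*, at −4.79 Mb, passed the threshold as lower at both levels (lumbar −0.81 and −1.10, brachial −0.53 and −1.26), and *Pts* and *Layn* at the brachial level. In the lumbar libraries 3 genes of that side lay further below 0 than *Megf11*. The part of the position near *Isl2* in these values was not tested. Of the 8 genes only *C1ql3* overlapped another gene with a mean of at least 0.5 TPM, *Pter* (2.18 TPM) on the opposite strand. The libraries were made with a stranded kit, and whether the counting used strand is not given in the sources used here.

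**Figure D4:**
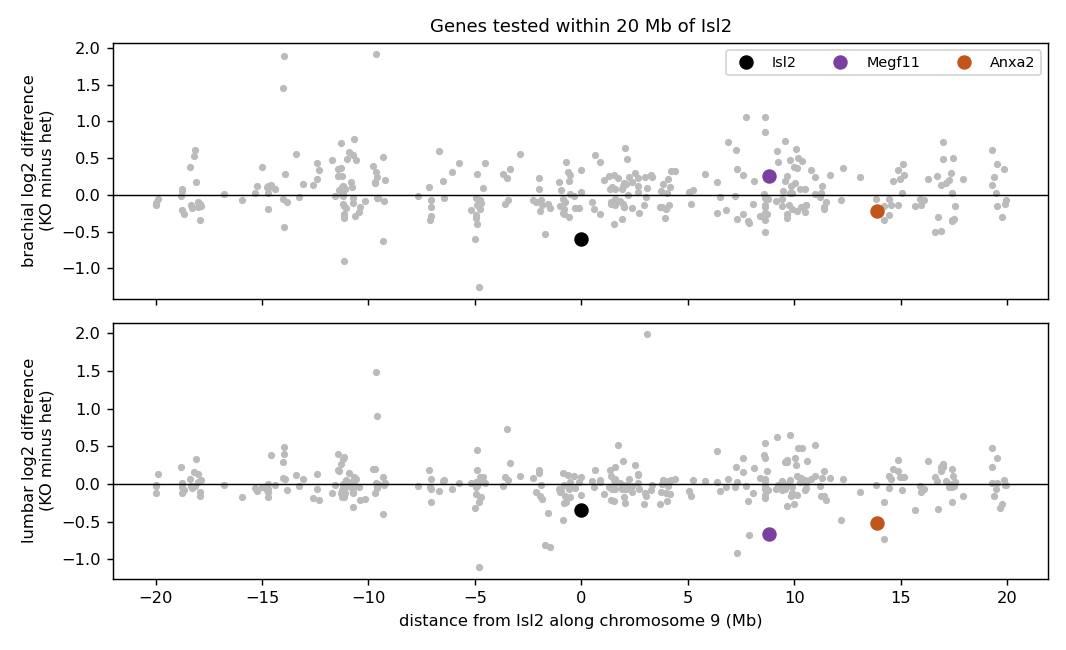
Log2 difference of *Isl2* KO minus heterozygote (vertical axes) at the brachial (top) and lumbar (bottom) levels against distance from *Isl2* in Mb, for genes tested within 20 Mb on chromosome 9. Each grey point is a gene, and *Isl2*, *Megf11* and *Anxa2* are coloured. *Megf11* and *Anxa2* lie below most neighbours at the lumbar level, where they were chosen, and on opposite sides of 0 at the brachial level.

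Within groups the 8 genes did not move as one. The deviations of the 12 libraries from their group means had a median Pearson correlation of 0.0046 over the 28 pairs of genes, with 14 pairs above 0, and of 0.21 with 19 pairs above 0 without brachial KO replicate 3. The points share libraries, depth and dissection, and no p is given. Over all libraries *Anxa2* and *Chodl* had the highest value (0.76, and 0.67 without that library), and *A730046J19Rik* and *Kcnab1* followed (0.73 and 0.57). Without that library *Anxa2* and *Kcnab1* were highest (0.88, from 0.26 with it). *A830018L16Rik* and *Megf11* had the lowest value in both cases (−0.58). Lumbar KO replicate 1 held the largest deviation for *A830018L16Rik*, *C1ql3* and *Megf11*, and brachial KO replicates 2 and 3 for 2 genes each.

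**Figure D5:**
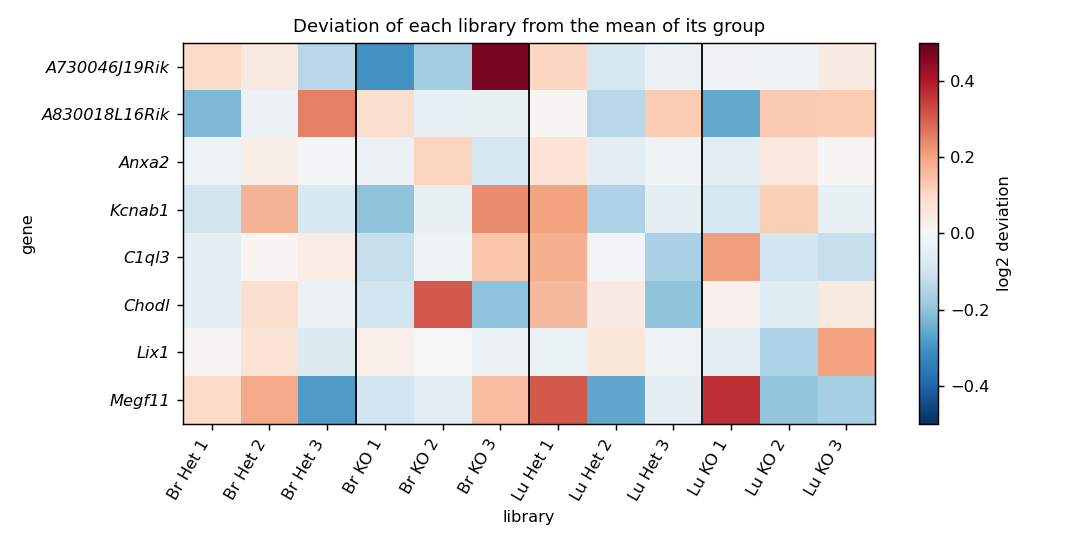
Deviation of each library from the mean of its group (colour, log2 scale) for the 8 genes (rows) in the 12 libraries (columns; Br, brachial; Lu, lumbar; Het, heterozygote). The darkest cell is *A730046J19Rik* in brachial KO replicate 3, at 0.48, where *Kcnab1* (0.24) and *Megf11* (0.16) were also above and *Chodl* (−0.21) below their group means.

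Over the 12 libraries the most similar pair of the 8 genes, by the root mean square difference of centred log2 values, was *Anxa2* and *Chodl* (0.13), followed by *C1ql3* and *Lix1* (0.18) and by *A830018L16Rik* and *Anxa2* (0.19). For *Anxa2* the 3 closest of 16704 named genes were *Kcnip1* (0.11), *Tmem176b* (0.12) and *Fam184b* (0.13). *Chodl* was closest to *Slc35f2* (0.11), *Anxa2* and *Chadl* (0.15), and *A830018L16Rik* to *Fam184b* (0.15), *Anxa2* and *Sel1l3* (0.20). *Kcnab1* was closest to the receptor gene *Met* (0.23), *Dnah5* (0.23) and *Adgra1* (0.24), at larger distances than the other genes had. *Megf11* was closest to *Fgd5* (0.15), *Lama3* (0.17) and *Gpr26* (0.17), and *A730046J19Rik* to *Pear1* (0.18), the neurofilament gene *Nefm* (0.20) and *Mir186* (0.21). The closest profiles to *C1ql3* were *Bean1* (0.11), *Kcnf1* (0.12) and *Zfp78* (0.13), and to *Lix1* *Uros* (0.12), *Ttc38* (0.12) and *Zfp938* (0.13). These are the smallest of very many distances and are given as a description.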

How the data were processed

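Total RNA from 12 libraries was prepared by the authors with a stranded, ribosomal RNA-depleted kit. According to the submitters' processing notes the tools were FastQC 0.11.7, Trimmomatic 0.38, HISAT2 2.1.0, Bowtie2 2.3.4.1 and StringTie 2.1.3b, with mm10 as the build. The TPM values deposited for each library are StringTie output scaled by the authors to 1 total. The deposited FPKM values are per gene length and mapped fragments, and the deposited coverage values are mean reads per base. No read counts were used here, so the intervals describe spread between libraries and not counting error. The tables identify genes by number. RefSeq (GRCm38.p6) named 45679 of 45777, and 96.2% had the same coordinates. Lines of 6 repeated identifiers were summed. Depth was read as the constant ratio of coverage to FPKM in single-transcript genes.

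Size factors from medians of ratios (0.899 to 1.24) were applied to TPM, so printed TPM are rescaled values. log2(TPM + 0.1) was fitted with limma 3.58.1 (R 4.3.3, trended eBayes) over genes whose mean was 0.5 TPM or more, separately in the 6 libraries of each level, and in all 12 with genotype as covariate for the level comparison. Fold changes are on that scale and understate those of low genes. Genotype calls, as in the study, need a change of over 0.5 (log2) with unadjusted p < 0.05, level calls a Benjamini-Hochberg adjusted p under 0.05. The fits were tested on simulated data. Python 3.11.15, pandas 2.3.3 and matplotlib 3.10.9 were used.

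The genes named are the 8 genes, *Isl2*, lists of partners, pool genes and cell type markers, for each gene the 3 closest profiles, and the genes nearest to the threshold. The 8 genes and all lists were chosen with earlier results of these data known. Markers named within a list, the overlapping gene, *Calml4* and the 4 genes named on the other side of *Isl2* were picked after their values were seen. Results were recomputed with a pseudocount of 0.001 or 1, without the filter, with a filter at 1 TPM, with FPKM, coverage (pseudocount 0.01), values as deposited, quantile normalization, no trend, protein-coding genes only, embryo sex, a replicate block, all 12 libraries in one fit, leaving out each library and, added after seeing the data, heterozygotes only for the level comparison.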

Additional observations from a re-analysis of the deposited data

How the results depend on the processing

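The lumbar directions of the 8 genes were kept under all alternatives, and the 4 lower level calls under all over both genotypes. With heterozygotes only, an alternative added after seeing the data, 2 lower calls (*Anxa2*, *Chodl*) were left, *C1ql3* (0.20) and *Lix1* (0.081) changed sign, and the 1 higher call was kept. The number of the 8 lower past the lumbar threshold was 6 to 8, also without single libraries. At the brachial level 0 genes passed, except that *Kcnab1* passed as higher on the values as deposited (1 gene, 0.52), which moved the median of all genes by 0.16, and *Chodl* as lower without KO replicate 2 (0 to 1 genes over the fits without 1 library). The 1 higher call between levels, *Kcnab1*, became 0 without a filter, with coverage, on the values as deposited, without a trend, with embryo sex and with the replicate block, and 0 to 1 without single libraries. It was lost without brachial heterozygote replicates 1, 2 or 3 (adjusted p = 0.0831, 0.0868 and 0.0756), brachial KO replicate 1 (0.0582), lumbar heterozygote replicates 1, 2 or 3 (0.0677, 0.078 and 0.092) and lumbar KO replicate 2 (0.0546).

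Signs changed for values near 0. *C1ql3* became −0.0011 without a filter and −0.037 with quantile normalization (−0.062 to 0.068 without single libraries). *A730046J19Rik* became −0.067 with quantile normalization (−0.23 to 0.16), and *A830018L16Rik* 0.085 on the values as deposited (−0.19 to 0.046). Between levels *C1ql3* was −0.13 to 0.00058 without single libraries. On the values as deposited the lumbar minus brachial difference moved to −0.46 for *Anxa2*, −0.44 for *Chodl* and −0.45 for *Lix1*, and their brachial values to −0.052, −0.22 and −0.087.

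Replicate numbers did not pair all the libraries. Correlations of same-numbered deviations were 0.0095 to 0.23 between brachial genotypes and −0.21 to 0.14 between lumbar ones, and 4 and 2 of 6 libraries correlated best with their own number. Between levels they were −0.022 to 0.34 in heterozygotes, where 4 of 6 correlated best with their own number, and −0.21 to 0.071 in KO libraries, where 0 of 6 did. Same-numbered brachial and lumbar libraries differed in sex in 3 of 6 pairs, so a shared number did not always mean a shared animal. Whether pairs of the same sex shared an animal is not known, and the main level fit treated the libraries as separate. The replicate block left 4 lower genes between levels and none at the brachial level. The causes were not tested. With 3 libraries a group and no counts, differences of low genes within their intervals were not detectable.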
